A study of Caenorhabditis elegans with 6 samples.

Results

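The genes described here are the short-chain dehydrogenase genes named dhs and the steroid dehydrogenase genes named stdh of the nematode Caenorhabditis elegans. Every gene on the array whose symbol starts with dhs- or stdh- was taken, which gave 33 genes (29 dhs and 4 stdh) of the 18999 features measured. Each of the 33 had a single probe, and its name came from the sequence name printed with the spot and was the same in the platform annotation. The worms were of the wild-type strain N2, fed on Escherichia coli OP50 at 24 °C. The exposed group grew on agar with 0.5 mg/L chlorpyrifos (CPF) and 1 mg/L diazinon (DZN) together, both given in acetone. The control group grew on agar with acetone at a similar concentration and no pesticide. The labels place all worms at L3/L4 and at 72 h of age, while the methods describe late L3 worms collected after a shorter time, and the age at harvest is therefore not settled. Dishes of a treatment were replicate cultures of whole worms, so tissues were not separated. There were 6 two-colour arrays, each with a mixture-treated sample against a control sample, 3 with the mixture labelled with Cy5 and 3 with the mixture labelled with Cy3. Below, "Cy5 replicate 1" is the first array with the mixture in Cy5, and so on. The scanner headers gave 6 different control extract numbers but 5 different mixture extract numbers, because Cy5 replicate 2 and Cy3 replicate 1 carried the same one.

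Short-chain dehydrogenases are enzymes that use NAD(H) or NADP(H) to convert hydroxyl groups into carbonyl groups or the reverse, on steroids, retinoids, sugars, fatty acids and foreign compounds. In worms some of them act in peroxisomes on fatty acids, some sit on lipid droplets, and some act on sterols, which worms must take from food. CPF and DZN are organophosphate insecticides whose oxidised forms block acetylcholinesterase, and carbonyl reduction by short-chain dehydrogenases is counted among the first steps of foreign-compound metabolism.

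The value given for each gene is the log2 ratio of mixture over control after background correction and normalisation, with its SD over the 6 arrays, so that a ratio of 1 is a doubling. A gene was called when its adjusted p in the limma fit with a dye effect, corrected with Benjamini-Hochberg over all 18999 features, was below 0.05. Over all probes, between 44.1% and 58.1% of the signals of a sample were well above background, meaning above the local background by more than 2 SDs of it. The ratios of any pair of arrays correlated with r between 0.237 and 0.714 across features, and Cy5 replicate 3 stood apart with a mean r of 0.276 with the others. Of the 33 genes, 24 passed this limit on 3 or more arrays in the control as well as in the mixture samples, and 4 (dhs-8, dhs-16, stdh-2 and stdh-4) never were. None of the spots of the 33 genes was saturated.

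With the mixture, 8 of the 33 genes were higher and 2 were lower. Over all features 13.9% were called, 6.74% as higher and 7.13% as lower. Among the 11185 features well above background on 3 or more arrays in either group, 11.1% were higher and 12% lower. The same filter kept 25 of the 33 genes, including all called genes except dhs-26. The genes that rose were dhs-2, dhs-20, dhs-19, dhs-27, dhs-3, dhs-5, dhs-9 and dhs-28, with ratios from 0.43 to 1.83, and those that fell were dhs-11 and dhs-26. All were dhs genes. At an unadjusted p under 0.05 the counts were 12 and 5 of 33, against 13.9% and 14.9% of all features, so that the lower genes were at about the share of all features. The median ratio of the 33 genes was 0.12 (SD of the 6 array medians 0.11) against 0.000133 over all features, and 25 of the 33 ratios lay above 0. Ratios never changed sign between the 6 arrays in 10 genes above 0 and 4 genes below 0, which was the case for 17.4% of all features, 8.76% above 0 and 8.62% below. The group therefore held a few genes with a large ratio and many near 0. With each array centred on its median in place of loess, the split was 5 higher and 5 lower among the 33 genes and 679 higher and 3439 lower among all features. The count of higher genes depended on single arrays, being 12 without Cy5 replicate 3, 5 without Cy3 replicate 2 and 3 without Cy3 replicate 3. Higher calls over all features moved the same way, from 1281 to 2173, 480 and 357. The count of lower genes was 1 without Cy5 replicate 2, without Cy3 replicate 2 or without Cy3 replicate 3.

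**Figure D1:**
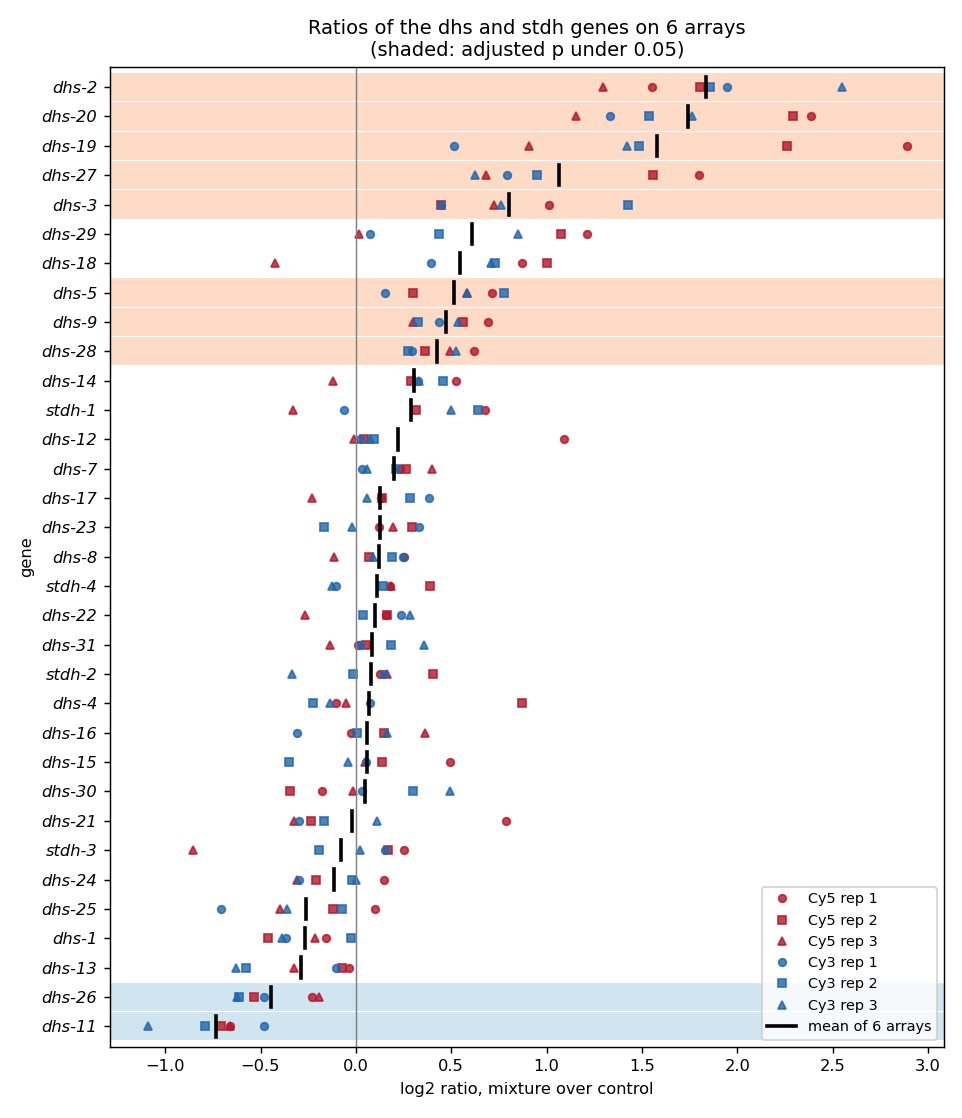
Log2 ratio of mixture over control (x axis) of each of the 33 genes (y axis, ordered by mean) on the 6 arrays, with red marks for the mixture in Cy5, blue marks for the mixture in Cy3 and a bar at the mean. The 8 shaded genes with positive ratios and the 2 with negative ratios passed the test, and dhs-29 and dhs-18 lie among them by size without passing it.

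The largest rises were those of dhs-2 (F55A12.4) and dhs-20 (F35B12.2). The log2 level of dhs-2 was 8.43, 8.17 and 8.79 in the controls of Cy5 replicates 1 to 3 and 8.19, 8.68 and 8.37 in those of Cy3 replicates 1 to 3. In the mixture samples of the same arrays it was 9.98, 9.98, 10.09, 10.14, 10.54 and 10.92. Every exposed sample of dhs-2 was thus above every control sample. The 6 ratios of dhs-2 were 1.55, 1.81, 1.29, 1.95, 1.86 and 2.55, a mean of 1.83 ± 0.42 (SD, n = 6; adjusted p = 0.000239 in limma) or 3.57-fold.

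For dhs-20 the control samples were nearly alike, from 9.07 to 9.26 on the log2 level scale. The exposed samples spread more, with 11.46, 11.48 and 10.25 on Cy5 replicates 1 to 3 and 10.59, 10.75 and 10.92 on Cy3 replicates 1 to 3. As with dhs-2, the groups did not overlap in level. The ratios of dhs-20 were 2.39, 2.29, 1.15, 1.33, 1.53 and 1.76 in the same order, with a mean of 1.74 ± 0.51 (n = 6; limma adjusted p = 0.00144), a 3.35-fold change. These were the only genes of the 33 whose levels were separate between groups, while 0.658% of all features were separate with the mixture above the control. Both genes passed the threshold under all 22 alternative settings, with ratios from 1.51 to 2.09 for dhs-2 and from 1.35 to 2.02 for dhs-20.

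**Figure D2:**
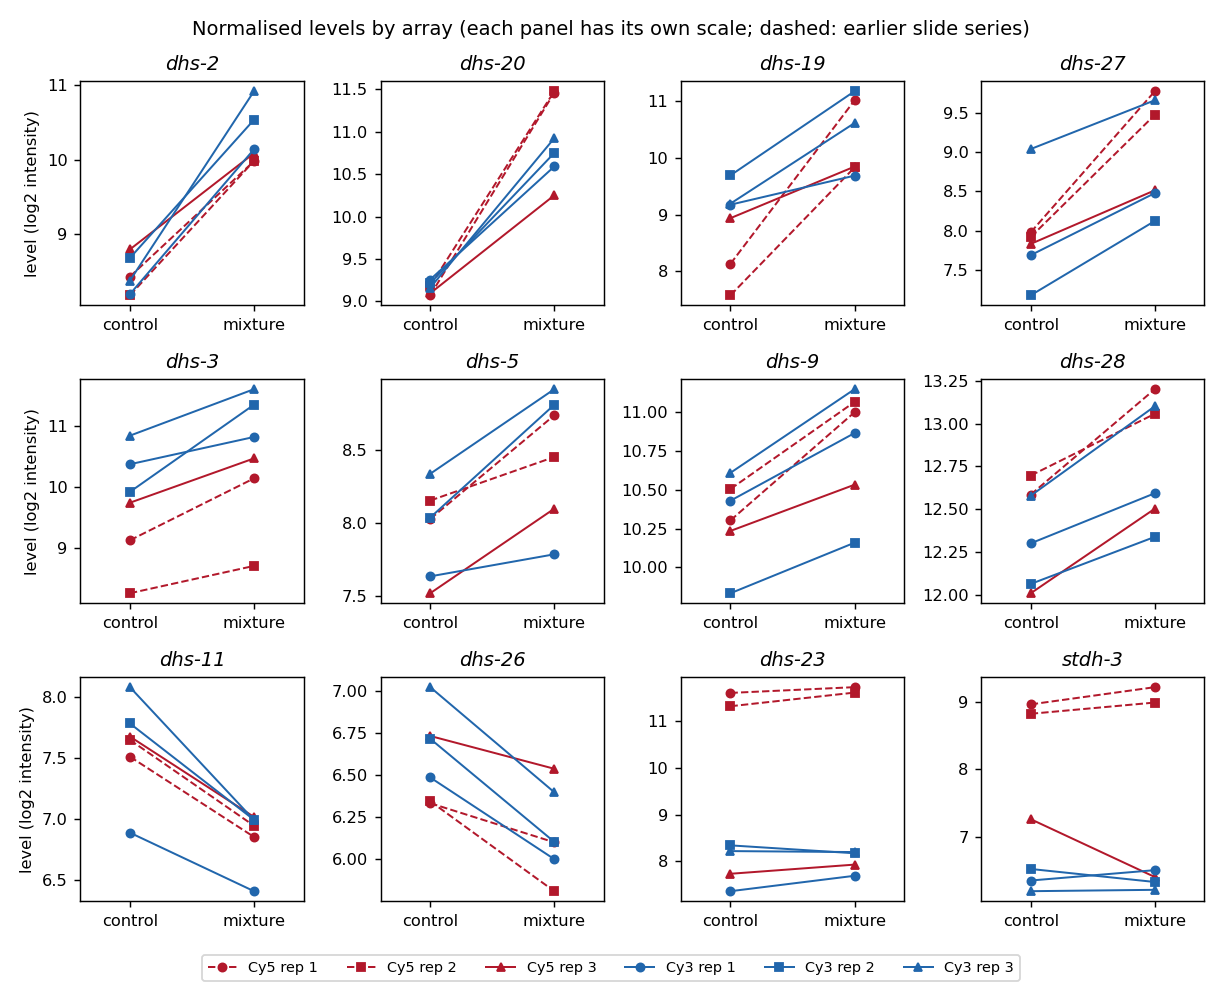
Normalised log2 level in the control and the mixture sample of each array (lines join samples of the same array; dashed lines are arrays of the earlier slide series) for the 10 called genes and for dhs-23 and stdh-3, each panel on its own scale. The control samples of dhs-20 lie between 9.07 and 9.26, and in dhs-23 and stdh-3 the dashed lines lie far above the others in both groups.

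A second pair, dhs-19 (T11F9.11) and dhs-27 (C04F6.5), rose on every array but by unequal amounts. The ratio of dhs-19 was 2.89, 2.26 and 0.91 on Cy5 replicates 1 to 3 and 0.51, 1.49 and 1.42 on Cy3 replicates 1 to 3, with a mean of 1.58 ± 0.87 (n = 6; limma adjusted p = 0.0104) or 2.99-fold. Its levels overlapped at a single value, since the highest control and the lowest exposed sample were both at 9.69. Without Cy3 replicate 2 or without Cy3 replicate 3 the call of dhs-19 was lost, with an adjusted p of up to 0.056. For dhs-27 the ratios were 1.80, 1.56, 0.68, 0.79, 0.95 and 0.62 in the same order, with a mean of 1.07 ± 0.49 (limma adjusted p = 0.00615) or 2.1-fold. The levels of dhs-27 overlapped, from 7.18 to 9.04 in the controls and from 8.12 to 9.78 with the mixture, and its ratio was 0.42 in the value table of the authors.

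The slide numbers in the headers were lower for Cy5 replicates 1 and 2 than for the other 4 arrays. From these numbers alone, the arrays were split here into an earlier and a later slide series, and an order in time is not given. Several of the genes above had their highest ratios on the earlier pair. The mean ratio of dhs-19 was 2.57 in the earlier series and 1.08 in the later, that of dhs-20 2.34 and 1.45, and that of dhs-27 1.68 and 0.76. By contrast dhs-2 had 1.68 and 1.91. Within the later series alone dhs-2, dhs-20, dhs-19, dhs-27 and dhs-11 still passed the limma threshold. Both earlier arrays were above all 4 later ones in ratio for 9 of the 33 genes (27.3%), namely dhs-9, dhs-13, dhs-15, dhs-18, dhs-19, dhs-20, dhs-27, dhs-29 and stdh-3. This held for 10.3% of all features and for 22.2% of the features called higher.

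Among the genes short of the threshold, dhs-29 (F27D9.6) and dhs-18 (C45B11.3) had larger ratios than some called genes but also a wider spread. Described below are dhs-14, which rose, and dhs-1 and dhs-13, which fell, all with a lower adjusted p than dhs-18. The ratios of dhs-29 were 1.21, 1.08 and 0.02 on Cy5 replicates 1 to 3 and 0.07, 0.43 and 0.85 on Cy3 replicates 1 to 3, with a mean of 0.61 ± 0.51 (limma adjusted p = 0.0542). Those of dhs-18 were 0.87, 1.00, -0.42, 0.40, 0.73 and 0.71, with a mean of 0.55 ± 0.52 (limma adjusted p = 0.0877). In both the lowest value came from Cy5 replicate 3. Leaving out that array raised the calls over all features from 2636 to 4609, and both genes then passed, with a ratio of 0.80 and an adjusted p of 0.0024 for dhs-29 and with 0.77 and 0.000784 for dhs-18. Without any other single array neither passed, with an adjusted p of 0.0794 to 0.186 for dhs-29 and of 0.148 to 0.248 for dhs-18, and the fit within the later slide series gave ratios of 0.23 and 0.09, not called. Of the 22 alternative settings, dhs-29 passed in 5 and dhs-18 in 4. Among these was the fit with dim probes left out (limma adjusted p = 0.0283 for dhs-29 and 0.0473 for dhs-18).

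Among the genes with a known place in the cell, dhs-3 (T02E1.5) codes for a major protein of intestinal lipid droplets. Its ratio was 1.01, 0.45 and 0.73 on Cy5 replicates 1 to 3 and 0.45, 1.43 and 0.76 on Cy3 replicates 1 to 3, a mean of 0.80 ± 0.37 (n = 6; limma adjusted p = 0.0129) or 1.74-fold. Its level differed between arrays by more than this, with controls from 8.26 to 10.84 and exposed samples from 8.71 to 11.60, so that the groups overlapped and the rise appeared within arrays. Without Cy3 replicate 3 the adjusted p of dhs-3 was 0.056. Of the 10 lipid droplet and fat storage genes listed beside it, 1 rose and 1 fell, with a median ratio of -0.09. The riser was hosl-1, a hormone-sensitive lipase homologue (0.35 ± 0.18; limma adjusted p = 0.0409), and the other was fat-7, a stearoyl-CoA desaturase (-0.66 ± 0.59; limma adjusted p = 0.0274). The droplet coat gene plin-1 had -0.03 and the lipase gene atgl-1 0.27, and neither passed.

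The enzyme DHS-28 acts in peroxisomes, where it takes part with the thiolase DAF-22 in shortening the side chains of fatty acids and of ascaroside pheromones. The log2 level of dhs-28 (M03A8.1) was between 12.01 and 12.70 in the controls and between 12.34 and 13.20 with the mixture. On Cy5 replicates 1 to 3 its ratio was 0.62, 0.36 and 0.50 and on Cy3 replicates 1 to 3 it was 0.29, 0.28 and 0.52, with a mean of 0.43 ± 0.14 (n = 6; limma adjusted p = 0.015) or 1.35-fold. The change was small but of similar size on each array. Calls of dhs-28 were lost without Cy5 replicate 1, Cy3 replicate 2 or Cy3 replicate 3, with an adjusted p of up to 0.0673.

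Of the 13 measured genes in the list for peroxisomal β-oxidation, which does not hold dhs-28, 6 were higher and none was lower by limma (8 and none at an unadjusted p under 0.05). The list's median ratio was 0.40 (SD of array medians 0.14). The thiolase gene daf-22 rose by 0.75 ± 0.16 (limma adjusted p = 0.00216) and ech-8, a predicted enoyl-CoA hydratase, by 0.71 ± 0.46 (0.0306). The hydratase gene maoc-1 (0.43 ± 0.29) and the transporter gene pmp-4 (0.43 ± 0.17) passed as well, as did the acyl-CoA oxidase genes acox-3 (0.57) and acox-1.5 (0.40). The ratio was -0.14 for acox-1.3, -0.18 for acox-1.4 and -0.18 for acox-1.2, none of which passed the test.

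The remaining genes that rose were dhs-5 (F56D1.5) and dhs-9 (Y32H12A.3), for which no role is given here. For dhs-5 the ratios were 0.71, 0.30 and 0.58 on Cy5 replicates 1 to 3 and 0.15, 0.77 and 0.58 on Cy3 replicates 1 to 3, with a mean of 0.52 ± 0.24 (limma adjusted p = 0.0201). Those of dhs-9 were 0.70, 0.56, 0.30, 0.43, 0.32 and 0.54 in the same order, with a mean of 0.47 ± 0.15 (limma adjusted p = 0.0131). Levels overlapped between groups in both genes, and every array gave a positive ratio. The call of dhs-5 was lost without Cy5 replicate 1, Cy3 replicate 2 or Cy3 replicate 3 (adjusted p up to 0.0851), and that of dhs-9 without Cy5 replicate 2 or Cy3 replicate 3 (adjusted p up to 0.0643). With median centring dhs-5 had 0.26, dhs-9 0.17 and dhs-28 0.19, and none of these passed.

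In the other direction, dhs-11 (Y39A1A.11) fell on every array. Its ratios were -0.66, -0.70 and -0.66 on Cy5 replicates 1 to 3 and -0.48, -0.79 and -1.09 on Cy3 replicates 1 to 3, with a mean of -0.73 ± 0.20 (n = 6; limma adjusted p = 0.00491). Its signal was well above background in all 6 control samples and in 1 of the 6 exposed samples. The size of the fall moved with the background treatment, being -1.53 with plain subtraction of the background and -0.47 with no background correction, and it passed in both. The call of dhs-11 was kept in 21 of the 22 alternative settings, all except the linear model of the methods after adjustment. The second gene that fell, dhs-26 (ZK816.5), had ratios of -0.23, -0.53, -0.19, -0.48, -0.61 and -0.62 and a mean of -0.45 ± 0.19 (limma adjusted p = 0.0142). It was well above background in none of the exposed samples and in 1 control sample, so no fold is given. It lost its call in 11 of 21 settings, among them the fits without Cy5 replicate 2, Cy3 replicate 2 or Cy3 replicate 3. Negative ratios on all 6 arrays were also found for dhs-1 (C01G8.3; -0.27 ± 0.17, limma adjusted p = 0.0783) and dhs-13 (F36H9.3; -0.29 ± 0.26, limma adjusted p = 0.086), which did not pass.

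In sterol metabolism, DHS-16 oxidises sterol intermediates on the way to dafachronic acids, the steroid hormones that bind the nuclear receptor DAF-12. The probe of dhs-16 (C10F3.2) was not well above background in any sample, and its ratio of 0.06 (95% interval -0.16 to 0.27) was thus measured on signals near background. The 12 genes listed for sterol transport and dafachronic acid signalling held 1 that rose and 1 that fell, with a median ratio of 0.08. The riser was emb-8, the reductase that hands electrons to cytochrome P450 enzymes (0.55 ± 0.22; limma adjusted p = 0.0101). The gene that fell was ncr-2, a homologue of a sterol transporter (-0.52 ± 0.43; limma adjusted p = 0.0162), which was well above background in no exposed sample and in 4 control samples. The oxygenase gene daf-36 (0.23), the cytochrome P450 gene daf-9 (-0.26) and the receptor gene daf-12 (-0.01) did not pass. Neither daf-9 nor hsd-1, hsd-2 or hsd-3 was well above background in any sample, and daf-12 was so in 1 control sample only.

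The 4 stdh genes belong to the branch of the family that also holds LET-767, an enzyme of long-chain and branched-chain fatty acid synthesis. None of the 4 was called by limma, also at an unadjusted p under 0.05, and their median ratio was 0.10. The ratios of stdh-1 (C06B3.4) were 0.68, 0.32 and -0.33 on Cy5 replicates 1 to 3 and -0.06, 0.64 and 0.50 on Cy3 replicates 1 to 3, with a mean of 0.29 ± 0.41 (95% interval -0.05 to 0.63). Without Cy5 replicate 3, its lowest array, its ratio was 0.43 and its limma adjusted p 0.0364, while without any other single array the ratio was 0.18 to 0.40 and the adjusted p 0.175 to 0.535. The fit within the later slide series gave 0.02 for stdh-1. Next to it in the RefSeq annotation lies stdh-3 (C06B3.5), with ratios of 0.26, 0.17, -0.86, 0.15, -0.19 and 0.02 and a mean of -0.08 ± 0.41 (95% interval -0.42 to 0.27). As in stdh-1, the lowest value came from Cy5 replicate 3.

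Both stdh-2 (F11A5.12) and stdh-4 (F25G6.5) stayed at background in every sample. Their ratios were 0.13, 0.40, 0.16, 0.15, -0.02 and -0.33 (mean 0.08 ± 0.24) for stdh-2 and 0.18, 0.39, 0.18, -0.10, 0.14 and -0.13 (mean 0.11 ± 0.20) for stdh-4. The gene let-767 itself rose slightly on every array, by 0.28 ± 0.17 (limma adjusted p = 0.044). It was the only gene called among the 15 listed for fatty acid synthesis, whose median ratio was 0.02. The elongase genes of that list ranged from -0.12 for elo-5 to 0.13 for elo-1.

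Further dhs genes were not called, and those below were well above background on 3 or more arrays in each group, except dhs-8, dhs-15 and dhs-31. DHS-21 is a reductase of dicarbonyls and of the sugar xylulose, and dhs-21 (R11D1.11) had a ratio of -0.02 (95% interval -0.37 to 0.33), with 0.79 on Cy5 replicate 1 and values between -0.33 and 0.11 on the others. The gene dhs-25 (F09E10.3) had -0.26 (95% interval -0.51 to -0.01; limma adjusted p = 0.156) and dhs-22 (C15H11.4) had 0.10 (95% interval -0.10 to 0.31). Among the 23 genes that were not called, ratios ran from -0.29 to 0.61 and adjusted p from 0.0542 to 0.953. The gene dhs-7 (E04F6.7) was above 0 on all 6 arrays with a ratio of 0.20 ± 0.14 (limma adjusted p = 0.112), and dhs-14 (R05D8.8) had 0.30 ± 0.22 (limma adjusted p = 0.0773). The other uncalled dhs genes, dhs-4, dhs-8, dhs-12, dhs-15, dhs-17, dhs-23, dhs-24, dhs-30 and dhs-31, had mean ratios between -0.11 and 0.22. Of these, dhs-8 was well above background in no sample, dhs-15 in 1 exposed and 2 control samples, and dhs-31 in 1 control sample only. Their ratios were thus measured on signals near background.

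Enzymes with related reactions but other names were compared as a fixed list of aldehyde dehydrogenases, dienoyl-CoA reductases and other carbonyl enzymes. Of its 20 measured genes, 5 rose and 2 fell, with a median of 0.12. The aldehyde dehydrogenase gene alh-5 rose by 1.74 ± 0.38 (limma adjusted p = 0.000804), alh-3 by 0.73 ± 0.48 (0.0306) and alh-10 by 0.47 ± 0.30 (0.0336). The short-chain dehydrogenase gene dhrs-4 rose by 0.72 ± 0.40 (limma adjusted p = 0.0164). The dienoyl-CoA reductase genes moved in opposite directions, with 0.66 ± 0.18 for decr-1.1, -0.67 ± 0.32 for decr-1.2 and -0.52 ± 0.41 for decr-1.3, and all passed (limma adjusted p of 0.00545, 0.0161 and 0.0443). In the plot of the related lists, rises of more than 1 on the log2 scale occur among the dhs genes and for alh-5. Short-chain dehydrogenases were among the genes examined by the study with these samples, and the direction of the group is therefore not independent evidence.

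**Figure D3:**
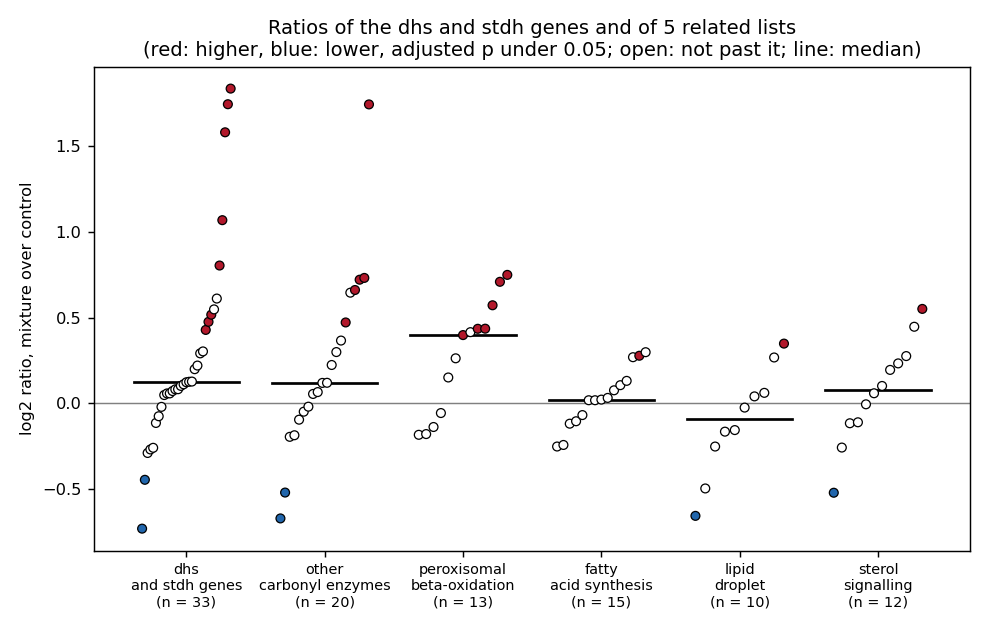
Log2 ratio of mixture over control (y axis) of each gene in the dhs and stdh group and in 5 related lists (x axis), red where higher and blue where lower with an adjusted p under 0.05, with a line at the median. The dhs and stdh genes have the most points above 1, and the peroxisomal β-oxidation list has the highest median, 0.40.

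Some members differed between arrays far more in level than between the groups. The log2 level of dhs-23 (R08H2.1) was 11.61 to 11.73 with the mixture and 11.32 to 11.61 in the controls on the earlier slide series, and 7.69 to 8.20 with the mixture and 7.36 to 8.34 in the controls on the later series. The difference between series was 3.62, and 21 of the 18999 features, dhs-23 included, had one at least as large in either direction. Its ratio of mixture over control was meanwhile 0.13 ± 0.19. For stdh-3 the levels were 8.82 to 9.21 over both groups on the earlier series and 6.19 to 7.26 on the later, a difference in mean level of 2.52, and it was well above background on the earlier arrays only. A difference of at least 2 was found for these 2 members and for 1.58% of all features. The level of dhs-13 did not follow the series, being lowest on Cy5 replicate 1 (6.91 in the control, 6.87 with the mixture), with all other samples from 8.54 to 11.57. What these levels moved with beyond the array was not tested. Ratios were formed within arrays and tests were run on ratios.

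The arrays also differed in how far germ line transcripts moved. Although the labels give larval worms, 22 of 23 measured oocyte markers and all 6 yolk protein genes were detected above background on 3 or more arrays in each group. Of the 23 oocyte markers 21 were lower by limma and none was higher, also at an unadjusted p under 0.05, with a median ratio of -1.28. All 6 yolk protein genes were lower (median -1.64), and so were 13 of 24 sperm markers (median -0.65). In whole worms, fewer cells of a type and less RNA per cell cannot be told apart. Among somatic lists, 9 of 21 intestine markers were higher and 1 was lower (median 0.16). Higher calls were made for 4 of 16 muscle and 6 of 12 cuticle markers with no lower calls, while at an unadjusted p under 0.05 no muscle and 2 cuticle markers were lower. The oocyte median was -1.85, -2.19 and -0.23 on Cy5 replicates 1 to 3 and -0.63, -1.14 and -1.46 on Cy3 replicates 1 to 3. The median of the 8 dhs genes that rose was 1.28, 1.06, 0.70, 0.48, 1.19 and 0.69 in the same order. The deepest oocyte median thus fell on Cy5 replicate 2 and the next on Cy5 replicate 1, the arrays of the earlier slide series. The highest ratios of dhs-9, dhs-19, dhs-20, dhs-27, dhs-28 and dhs-29 were on Cy5 replicate 1. On Cy5 replicate 2 the ratio of dhs-28 was 0.36, below the 0.50 on Cy5 replicate 3 and the 0.52 on Cy3 replicate 3. The highest ratio of dhs-2 lay on Cy3 replicate 3, and those of dhs-3 and dhs-5 lay on Cy3 replicate 2. Oocyte markers moved least on Cy5 replicate 3, which held the lowest ratios of dhs-20 and dhs-29, but dhs-19 was lowest on Cy3 replicate 1 and dhs-27 on Cy3 replicate 3. Of the 8 dhs genes that rose, 3 were lowest on Cy5 replicate 3 and 3 on Cy3 replicate 1. Of all 33 genes, 15 had their lowest ratio on Cy5 replicate 3, and the median of the group there was -0.02. The part of the germ line difference, of worm age and of the slide series in the ratios of the dhs genes was not tested.

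**Figure D4:**
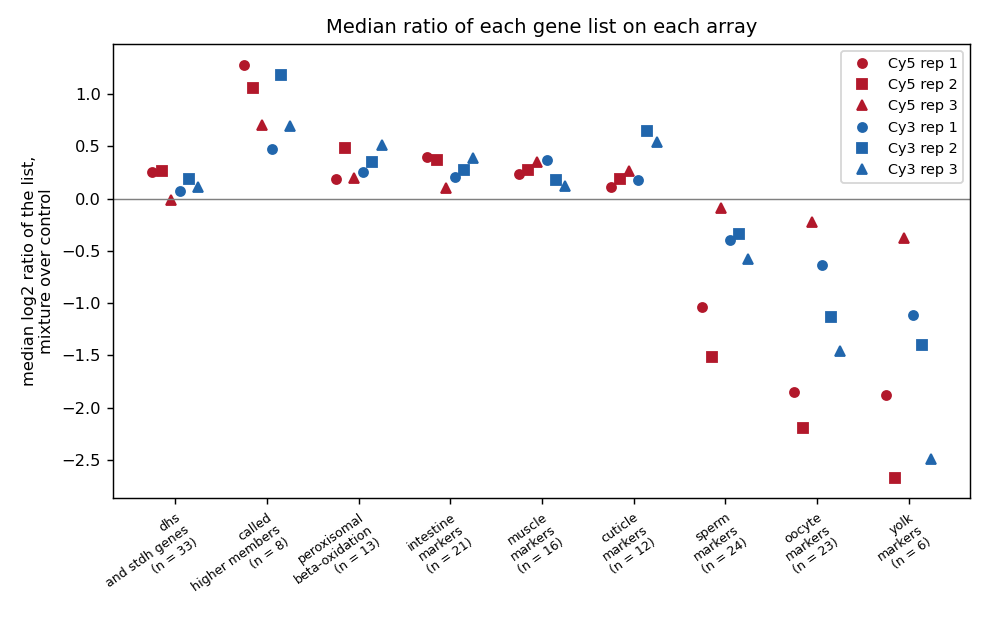
Median log2 ratio of mixture over control (y axis) of each gene list (x axis, n is the number of genes) on each of the 6 arrays, red for the mixture in Cy5 and blue for the mixture in Cy3. The oocyte, yolk and sperm lists lie below 0 on every array and spread widely, with Cy5 replicate 3 nearest to 0, while the 8 called dhs genes lie between 0.48 and 1.28.

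The ratios differed between dye orientations in several genes. The mean ratio with the mixture in Cy5 and in Cy3 was 1.55 and 2.12 for dhs-2, 1.94 and 1.54 for dhs-20, 2.02 and 1.14 for dhs-19, and 1.35 and 0.79 for dhs-27. For dhs-26 it was -0.32 and -0.57. The dye effect passed the limma threshold in 0.0211% of all features and in none of the 33 genes, which with 3 arrays an orientation does not show that orientation had no part. Under the alternative settings no called gene changed its direction. Settings without the dye term, with the replicate or scan day block, with dim probes left out or with probe means leave these ratios as they are. The same holds for the linear model of the methods. In these settings a direction could not change, and only the test could. Of the 10 called genes, dhs-2 and dhs-20 passed in every setting, dhs-11 in 21 of 22, dhs-27 in 19, dhs-19 in 18 and dhs-3 in 16, while dhs-9 passed in 14, dhs-5 in 13, dhs-28 in 12 of 21 and dhs-26 in 10 of 21.

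**Figure D5:**
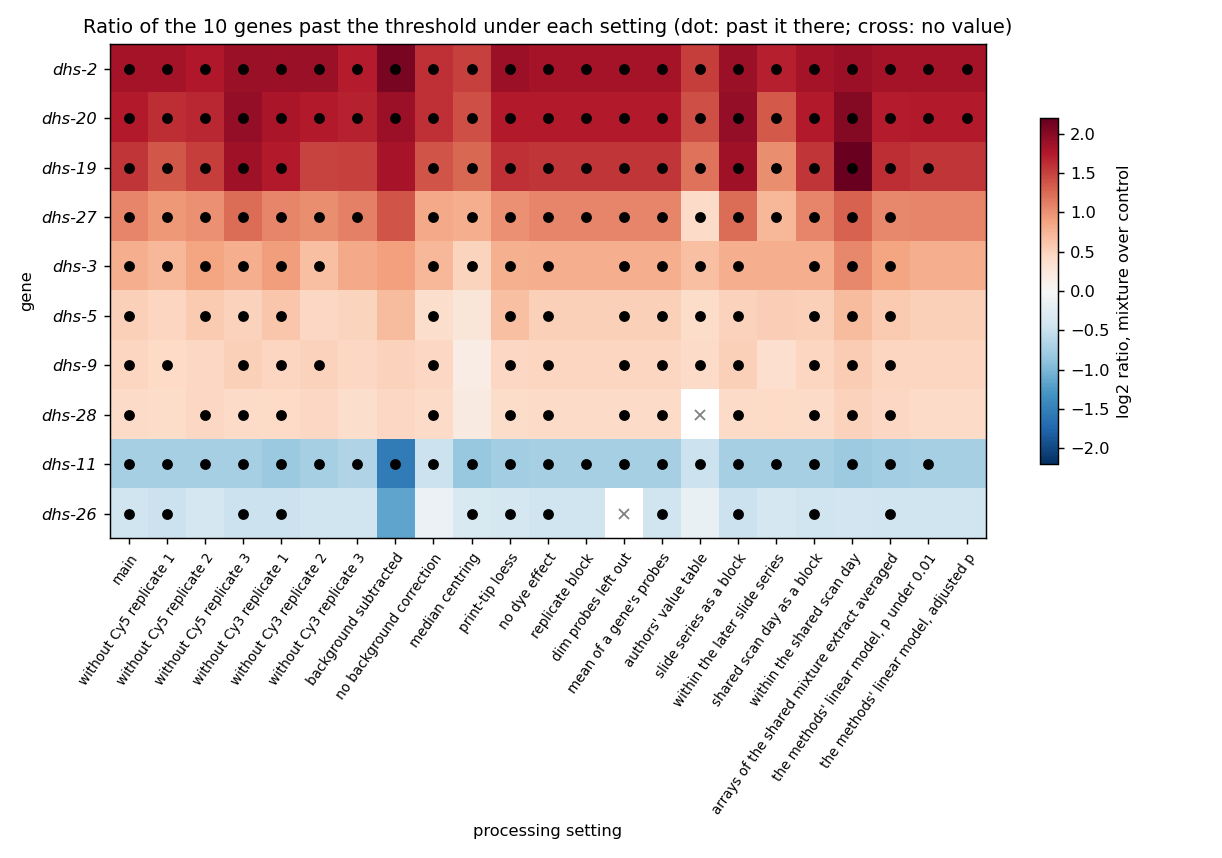
Log2 ratio of mixture over control (colour) of the 10 called genes (rows) in the main setting and in 22 alternatives (columns), with a black dot where the gene passed the threshold and a cross where it had no value. Dots fill the rows of dhs-2 and dhs-20 and all but 1 column of dhs-11, and dhs-26 has the fewest.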

How the data were processed

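The authors extracted RNA from whole worms, labelled cDNA with Cy3 or Cy5, hybridised each mixture sample with a control sample and scanned the arrays. The deposited scanner files hold intensity values (median foreground, median background and its SD per spot and channel) and the percent of saturated pixels, not normalised. The deposited value table holds log2 ratios made with limma 3.2.3 per the submitters' processing notes, with loess within and Aquantile between arrays per the methods; no source used here names its background correction. Turned to mixture over control, it correlated with the ratios below at r 0.853 to 0.925 per array, with medians from -0.00227 to 0.00385 and slopes from 0.73 to 0.831.

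From the scanner files, medians were background-corrected (normexp, offset 50), normalised by loess within arrays with control spots at weight 0, and by Aquantile between arrays (limma 3.58.1, R 4.3.3). Dyes and direction were taken from the labels. Probes (22490) were named by sequence name and the platform annotation, with RefSeq (WBcel235) for names and neighbouring genes only, and of several probes of a gene the brightest on average was kept. Positions are not given because the files name no genome build, and dhs-6 and probe and protein sequences were not analysed here. All 18999 features were fitted with limma on log2 ratios with a dye effect, two-sided, with 6 arrays as samples, and the 33 genes were read from that fit. The submitters call the arrays biological replicates. Whether the 2 with the same mixture extract number share an RNA sample was not tested. Averaging them gave the same counts among the 33 genes, 8 higher and 2 lower. Over all features it gave fewer calls, 925 higher and 918 lower against 1281 and 1355. Values on all arrays are given for called genes and for stdh genes. The fit was also run on simulated arrays with changes in bright probes only and independent noise on each array. That simulation does not show how the fit behaves with an array that stands apart or with dim probes. The number of arrays limits precision. Alternatives were each array left out, other background corrections and normalisations, no dye term, a replicate block, dim probes left out, probe means, the value table, slide series, scan day, the shared extract averaged, and the linear model of the methods. The members, lists and tests were chosen with earlier results of these data known.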

Additional observations from a re-analysis of the deposited data

Results flagged for a closer look

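In 3 of the 33 genes a single array lay far from the other 5 by Dixon's criterion, which chance alone meets in about 1 of 20 groups. The ratio of dhs-12 was 1.09 on Cy5 replicate 1 and between -0.0073 and 0.0957 elsewhere, that of dhs-4 was 0.871 on Cy5 replicate 2 and between -0.226 and 0.0726 elsewhere, and that of dhs-14 was -0.118 on Cy5 replicate 3 and between 0.291 and 0.523 elsewhere. None of these genes was called on the 6 arrays, and dhs-14 passed the limma threshold without Cy5 replicate 3 (ratio 0.39, adjusted p = 0.0119) and not when any other single array was left out (adjusted p from 0.156 to 0.207).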

How the results depend on the processing

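Over 22 alternative settings and 717 values of the 33 genes, no call changed direction, 51 calls were lost and 20 gained. Among genes called in neither fit, 33 values changed sign. As stated above, some of these settings leave the ratio itself unchanged. Leaving out single arrays gave 3 to 12 higher and 1 to 2 lower genes, against 8 and 2 on all arrays, while the calls over all features went from 535 to 4609, against 2636. There were 2 higher and 1 lower with the background subtracted, which called 153 features in all and put the median ratio of the group at 0.32 (0.12 in the main setting). With no background correction there were 8 and 1 (998 and 975 over all features), and with median centring 5 and 5 (679 and 3439). With dim probes left out there were 10 and 1 of 25 genes (1443 and 1579 over the features kept). The median ratio was 0.04 with median centring, 0.05 within the later slide series and 0.05 in the value table of the authors. Within the later slide series there were 4 and 1 (382 and 509 over all features), within the shared scan day of 3 arrays 13 and 1 (1593 and 1814), and in the linear model of the methods 3 and 1 at an unadjusted p under 0.01 and 2 and 0 after adjustment. The linear model of the methods was fitted here to the channel levels of the main setting, without the outlier removal of the methods. Its counts are therefore not the authors' own. Of all features it called 583 at an unadjusted p under 0.01 and 56 after adjustment. With slide series as a block the values equal those without Cy5 replicate 3, which that fit describes exactly. The cause of these differences was not tested.

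Replicate numbers are shared between dye orientations, and deviations of same-numbered arrays correlated at -0.107, -0.00647 and -0.233. Those of Cy5 replicate 2 and Cy3 replicate 1, which carried the same mixture extract number, correlated at -0.159. Because that pair showed no positive correlation either, these values cannot decide whether the numbers pair the samples. With the replicate block, 4 of the 33 genes were higher and 1 was lower. Over all features 531 were then higher and 419 lower, against 1281 and 1355 in the main fit. Signals near background limit what can be said of dhs-8, dhs-11, dhs-15, dhs-16, dhs-26, dhs-31, stdh-2, stdh-3 and stdh-4.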
